A study of Arabidopsis thaliana with 38 samples.

Results

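The comparison set the HSP90.2-TDNA line of *Arabidopsis thaliana* against its wild type, Col-0. The arrays were taken by their titles: 3 of HSP90.2-TDNA and 3 of Col-0, which is 6 of the 38 arrays of the series. HSP90.2-TDNA is homozygous for an insertion of transfer DNA (T-DNA) in the gene *HSP90.2* in the Col-0 background, and Col-0 is the seed stock CS60000, which carries no insertion. Plants of both lines were 14 days old, were grown on GM medium in long days without further treatment, and gave their whole aerial tissue, pooled over several seedlings in each sample. Total RNA was hybridized to ATH-1 arrays. The same experiment held 3 samples each of HSP90.1-TDNA and HSP90.3-TDNA, which carry insertions in the related genes *HSP90.1* and *HSP90.3*, and the line *hsp90.2-3* was not part of the comparison. HSP90.2-TDNA is a single insertion line, so an effect of the disrupted gene and of anything else in that line cannot be told apart. In pooled aerial tissue, fewer cells of a type and less RNA per cell cannot be told apart either.

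HSP90 is a molecular chaperone that binds client proteins late in folding, among them kinases, receptors and transcription factors, and releases them through cycles of ATP hydrolysis. It works with HSP70 and with co-chaperones such as Hop, which passes clients on, and SGT1, which ties HSP90 to the immune receptors of plants. *Arabidopsis* has several cytosolic HSP90 genes. *HSP90.1* is strongly induced by heat, whereas *HSP90.2* belongs to a cluster of constitutively expressed genes that includes *HSP90.3*. HSP90 also holds heat shock transcription factors in check in many organisms. The comparison thus shows which transcripts differ in unstressed seedlings when 1 constitutive gene of the family is disrupted.

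The 12 arrays of the experiment were alike in scale, with median signals of 191.8 to 202.4 and correlations with the median profile of 0.984 to 0.99, of which HSP90.2-TDNA replicate 2 had the lowest. That sample stood apart: 140 of the probe sets tested were more than 2-fold above all of the other 5 samples of the comparison in it, against 1 in HSP90.2-TDNA replicate 1, 14 in HSP90.2-TDNA replicate 3 and 0 to 3 in the Col-0 samples. Against all of the other 11 arrays, 41 probe sets were as far above in replicate 2, while the other arrays had 0 to 13. More than 2-fold below the other 5 samples were 7, 23 and 47 probe sets in HSP90.2-TDNA replicates 1, 2 and 3, and 39, 10 and 12 in Col-0 replicates 1, 2 and 3. Of the markers of aerial tissue, *RCA* and *LHCB4.1* had a named probe set, and their summed signal was 45056 to 54066 in HSP90.2-TDNA and 50222 to 54818 in Col-0. The 5 root markers with a named probe set summed to 2870 to 5061 in HSP90.2-TDNA and 3615 to 4305 in Col-0, nearly all of it from *PYK10*, a beta-glucosidase gene. Over all 6 samples *EXPA18* was at 109 to 143, *EXPA7* at 36.7 to 90.8, *AT5G26260* at 13.9 to 85.3 and *AT3G49960* at 1.9 to 3.44. No marker of flowers or seeds had a named probe set.

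A single probe set of 15471 differed between HSP90.2-TDNA and Col-0 at an adjusted p under 0.05, which is 0.00646% of those tested. Probe set 248045_at gave signals of 26.3, 2.99 and 5.96 in HSP90.2-TDNA, against 4889, 3281 and 3524 in Col-0. Every HSP90.2-TDNA sample was near the bottom of the scale, and the groups were far apart. The mean signal was 11.8 ± 12.7 in HSP90.2-TDNA and 3898 ± 867 in Col-0 (SD, n = 3 each), a log2 change of -7.21 (SE 0.28, adjusted p = 2.79e-07 by limma with Benjamini-Hochberg adjustment). With a signal this low, the size of the fold change depends on the offset added before the logarithm, and was -8.23 with an offset of 4 and -5.70 with an offset of 64. The methods' t-test, which estimates the spread of each probe set from 6 samples alone, called no probe set once its p-values were adjusted as for limma. It gave this one an unadjusted p of 0.000418 and an adjusted p of 0.985. The study's own gene lists used an unadjusted threshold of 0.05.

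No other line of the series had so low a signal of 248045_at. It was 3051 to 3987 in HSP90.1-TDNA and 3161 to 4988 in HSP90.3-TDNA, and 2827 to 5791 in *hsp90.2-3*. The 5 lines with an HSP90 RNAi construct and their 3 control lines gave 2233 to 4211, from other experiments. The direct differences within the experiment were -7.12 on the log2 scale against HSP90.1-TDNA (adjusted p = 3.24e-07) and -7.27 against HSP90.3-TDNA (adjusted p = 2.54e-07), both by limma. The probe table used here pairs 248045_at with no gene, and it names no probe set for *HSP90.2* or for the other cytosolic HSP90 genes, so the transcript of the disrupted gene is not reported by name.

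**Figure D1:**
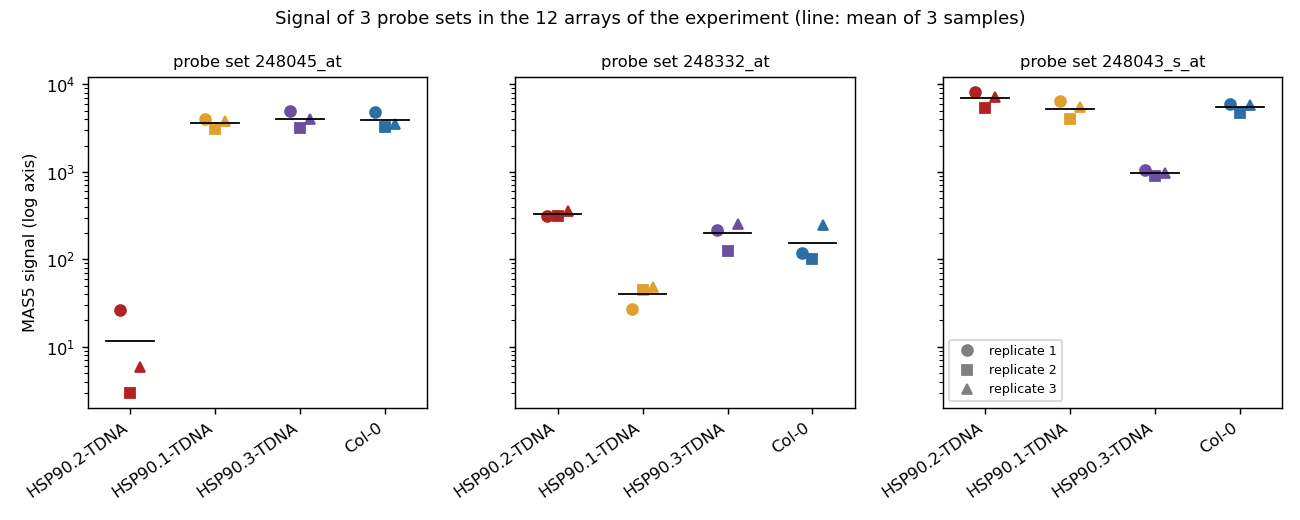
MAS5 signal, on a log axis, of 3 probe sets without a gene name in the 12 arrays of the experiment, with a line at the mean of each group's 3 samples. The 3 HSP90.2-TDNA samples sit at 2.99 to 26.3 for 248045_at, below every other sample, whereas 248332_at is lowest in HSP90.1-TDNA and 248043_s_at is lowest in HSP90.3-TDNA.

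Another pair of unnamed probe sets differed between HSP90.2-TDNA and a sister line, each in the test against a single sister line. Probe set 248332_at had signals of 315, 317 and 357 in HSP90.2-TDNA, against 27.4, 45 and 48.4 in HSP90.1-TDNA, a log2 difference of 2.64 (SE 0.30, adjusted p = 0.0108 by limma). In Col-0 it had 117, 100 and 244, so that all HSP90.2-TDNA samples were above all Col-0 samples. That difference, 1.12 on the log2 scale (SE 0.30), did not pass the test (unadjusted p = 0.00325, adjusted p = 0.929 by limma). HSP90.3-TDNA had 216, 126 and 254, also below all HSP90.2-TDNA samples, and the difference of 0.73 (SE 0.30) did not pass either (adjusted p = 0.999 by limma). HSP90.1-TDNA was itself below Col-0, with a log2 change of -1.52 (adjusted p = 0.742 by limma). The call against HSP90.1-TDNA was lost when HSP90.2-TDNA replicate 3 or any 1 of the HSP90.1-TDNA samples was left out, with adjusted p-values of 0.0522 to 0.0937.

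Probe set 248043_s_at, whose suffix marks probes shared by several transcripts, had 8142, 5388 and 7173 in HSP90.2-TDNA, against 1061, 889 and 974 in the HSP90.3-TDNA samples. The groups did not overlap, and the log2 difference was 2.79 (SE 0.19, adjusted p = 8.17e-05 by limma). Col-0 had 5943, 4761 and 5735, within reach of the HSP90.2-TDNA samples, and the difference of 0.32 (SE 0.19) did not pass the test (unadjusted p = 0.127 by limma). HSP90.1-TDNA, with 6433, 3974 and 5463, overlapped as well (0.39, SE 0.19, unadjusted p = 0.0675 by limma). HSP90.3-TDNA was thus the line that stood off, with a log2 change of -2.47 against Col-0 (adjusted p = 0.000606 by limma). Each of the 3 probe sets thus had its lowest signals in a different insertion line, as plotted for the 12 arrays by line.

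The calls between insertion lines were few. HSP90.2-TDNA differed from HSP90.1-TDNA in 4 of 15471 probe sets (0.0259%), from HSP90.3-TDNA in 3 (0.0194%) and from the mean of both in 2 (0.0129%). Beside the unnamed probe sets these were *AT3G57940* and *AT2G23950* against HSP90.1-TDNA and *AT2G10850* against HSP90.3-TDNA. *AT3G57940* had 216, 177 and 176 in HSP90.2-TDNA, 80.1, 68.5 and 69.4 in HSP90.1-TDNA, and 210, 173 and 161 in Col-0, so HSP90.1-TDNA was the line that stood off. The same held for *AT2G23950*, with 87, 36.9 and 20.6 in HSP90.2-TDNA, 433, 343 and 367 in HSP90.1-TDNA, and 66.9, 24.7 and 60.7 in Col-0. For *AT2G10850* the signals were 47.5, 47.8 and 106 in HSP90.2-TDNA and 64.2, 78.3 and 88 in Col-0, whereas HSP90.3-TDNA was the high line with 430, 347 and 318. In these genes the HSP90.2-TDNA and Col-0 samples overlapped, and 248045_at was the only probe set called against Col-0 and against both insertion lines. The calls of the 3 named genes were fragile: adjusted p-values by limma were 0.0519 and 0.0522 for *AT3G57940* without HSP90.1-TDNA replicate 2 or 3, 0.176 to 0.304 for *AT2G23950* without HSP90.2-TDNA replicate 2 or 3 or any 1 HSP90.1-TDNA sample, and 0.0616 to 0.116 for *AT2G10850* without HSP90.2-TDNA replicate 1 or 2 or any 1 HSP90.3-TDNA sample. With the replicate number as a block, adjusted p was 0.0533 for *AT2G23950* and 0.0681 for *AT2G10850*, and with only the samples of the lines compared it was 0.132 for *AT3G57940*, 0.233 for *AT2G23950* and 0.214 for *AT2G10850*. The difference of 248043_s_at from the mean of both lines, 1.59, had an adjusted p of 0.00694 with all samples and 0.0595 without HSP90.2-TDNA replicate 3.

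**Figure D2:**
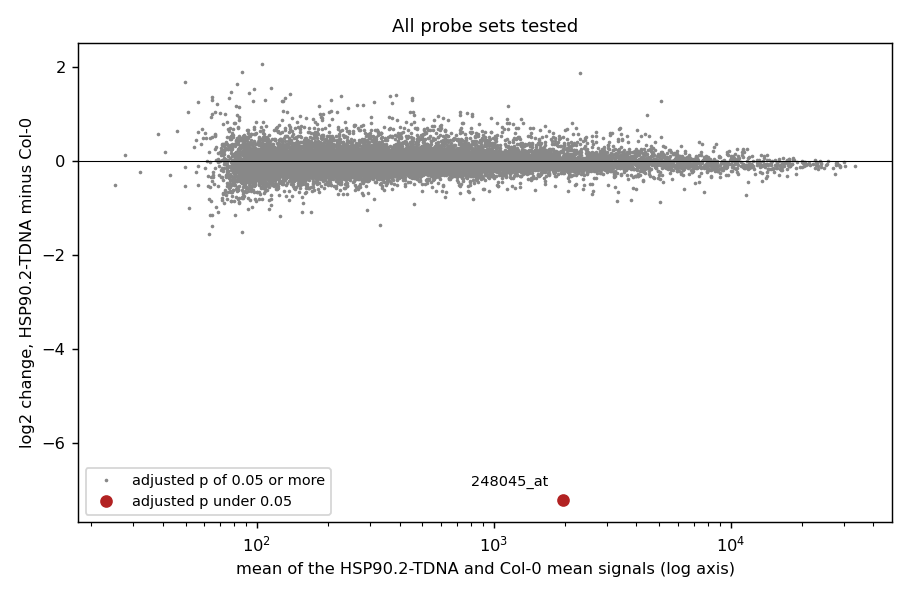
Log2 change of HSP90.2-TDNA minus Col-0 for the 15471 probe sets tested, against the mean of the group mean signals on a log axis. Probe set 248045_at lies at -7.21, and the largest decrease among all others is -1.55, of AT1G44510.

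Across the whole array the profiles of HSP90.2-TDNA and Col-0 lay close together. The median log2 change was -0.03, and the changes from the 10th to the 90th percentile spanned -0.25 to 0.24. The 95% confidence interval of a change reached a median of 0.34 to either side, 0.41 in the 5157 dimmest probe sets and 0.30 in the 5157 brightest. At an unadjusted p under 0.05 there were 754 probe sets (4.87%), 321 higher (2.07%) and 433 lower (2.8%) in HSP90.2-TDNA. With a change of at least 1.5-fold in addition, called the 1.5-fold rule here, 160 were left (1.03%), 88 higher (0.569%) and 72 lower (0.465%), or 103 higher and 54 lower after quantile normalization. This count depended on single samples: it was 338 without HSP90.2-TDNA replicate 1, 154 without replicate 2, of which 69 were among the 160, 399 without replicate 3, and 254 without Col-0 replicate 3. Of the 160, 114 also had groups that did not overlap, which is 0.737% of the 15471 probe sets tested. With no demand on p or fold, 1570 (10.1%) of those tested did not overlap. The rule and the overlap come from the same contrast, so nothing is read from these shares.

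Among named genes past the 1.5-fold rule without overlap, the 12 higher and the 12 lower with the smallest p are described, chosen by this very contrast. None passed the adjusted test, with an adjusted p of 0.929 by limma for each. Some were tested only because a single line mean passed the signal filter. That line was HSP90.2-TDNA for *UGT76B1*, *AT4G39560* and *AT1G79620*, and Col-0 for *AT1G44510*, *AT4G17690*, *AT2G16980* and *AT5G06400*. It was HSP90.3-TDNA for *AT2G23680* and HSP90.1-TDNA for *AT2G02550*. The highest signals belonged to *AT4G01870*, with 5391, 6339 and 9888 in HSP90.2-TDNA and 3532, 2693 and 2514 in Col-0, a log2 change of 1.27 (SE 0.38). *UGT76B1*, which encodes a glycosyltransferase that acts on immune signal molecules, had 72.9, 112 and 100 in HSP90.2-TDNA and 56.1, 7.23 and 38.1 in Col-0 (log2 change 1.29, SE 0.38). The nearest samples of the groups were close in this gene, and Col-0 replicate 2 lay far below the other Col-0 samples, without which the change was 0.82. *CCT2*, an enzyme of phosphatidylcholine synthesis, had 264, 232 and 165 in HSP90.2-TDNA and 123, 136 and 122 in Col-0 (log2 change 0.70, SE 0.19).

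*AT2G23680* had the largest change of the 12 higher genes, 1.67 (SE 0.48), from dim signals of 114, 118 and 28.3 in HSP90.2-TDNA and 14.9, 8.47 and 15.5 in Col-0. *AT5G39520* followed with 255, 365 and 279 in HSP90.2-TDNA and 117, 128 and 90.5 in Col-0, a log2 change of 1.30 (SE 0.33). *AT1G10585* had 352, 594 and 634 in HSP90.2-TDNA and 310, 165 and 173 in Col-0 (log2 change 1.24, SE 0.35). In *AT5G39520* the groups were well apart, while HSP90.2-TDNA replicate 3 came near Col-0 in *AT2G23680* and replicate 1 did so in *AT1G10585*. *AT1G62660* had 679, 881 and 734 in HSP90.2-TDNA and 541, 353 and 294 in Col-0 (0.96, SE 0.28). For the other 5, *AT4G39560*, *AT2G19180*, *AT4G23885*, *AT5G12010* and *AT1G79620*, the log2 changes were 0.81, 0.73, 0.69, 0.66 and 0.59.

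Of the 12 lower genes, *ATO* encodes ATROPOS, a splicing factor known for its part in cell fate in the female gametophyte. It had 148, 162 and 175 in HSP90.2-TDNA and 304, 211 and 313 in Col-0, a log2 change of -0.70 (SE 0.15). *IQD19*, of a family of calmodulin-binding proteins, had 124, 75.1 and 136 in HSP90.2-TDNA and 189, 211 and 191 in Col-0 (log2 change -0.77, SE 0.18). *AT3G03270* had 462, 430 and 464 in HSP90.2-TDNA and 909, 724 and 730 in Col-0 (log2 change -0.77, SE 0.18). Their HSP90.2-TDNA samples all lay below the lowest Col-0 sample. *AT3G49900*, with the smallest p of the 12, had 59, 48.7 and 115 in HSP90.2-TDNA and 202, 164 and 165 in Col-0 (log2 change -1.16, SE 0.24, unadjusted p = 0.000422). *AT1G44510* had the largest change of the 12, -1.55 (SE 0.38), from 16.9, 32.7 and 20.7 in HSP90.2-TDNA and 133, 62.3 and 111 in Col-0. *AT2G02550* had 24.4, 65.9 and 17.1 in HSP90.2-TDNA and 91.1, 79.5 and 102 in Col-0. Its replicate 2 was near the Col-0 samples, and without that sample the gene passed the test (log2 change -1.54, adjusted p = 0.0463 by limma), as *AT5G52580*, named after its values were seen, did without HSP90.2-TDNA replicate 1 (log2 change -1.91, adjusted p = 0.0123 by limma). The log2 changes of *AT4G29650*, *AT2G16980*, *AT2G21930*, *AT5G06400*, *AT4G17690* and *AT3G55160* were -0.85, -0.77, -0.73, -0.65, -0.63 and -0.60.

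Several of these 24 genes also lay apart from Col-0 in the sister lines, whose changes are set against the same 3 Col-0 samples. *AT2G23680* had a log2 change of 1.67 in HSP90.2-TDNA, 1.93 in HSP90.3-TDNA and 0.36 in HSP90.1-TDNA. *AT5G39520* had 1.30 in HSP90.2-TDNA, 0.93 in HSP90.1-TDNA and 0.95 in HSP90.3-TDNA. *AT2G19180* had 0.73 in HSP90.2-TDNA, less than the 0.97 of HSP90.1-TDNA, and 0.54 in HSP90.3-TDNA. Among the lower genes, *AT1G44510* had -1.55 in HSP90.2-TDNA, -1.07 in HSP90.1-TDNA and -1.08 in HSP90.3-TDNA. *AT4G29650* was at -0.85 in HSP90.2-TDNA, 0.12 in HSP90.1-TDNA and -0.05 in HSP90.3-TDNA, and *AT1G79620* at 0.59 in HSP90.2-TDNA, -0.01 in HSP90.1-TDNA and -0.35 in HSP90.3-TDNA. None of the 24 was called by limma in the direct comparisons of HSP90.2-TDNA with either sister line.

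**Figure D3:**
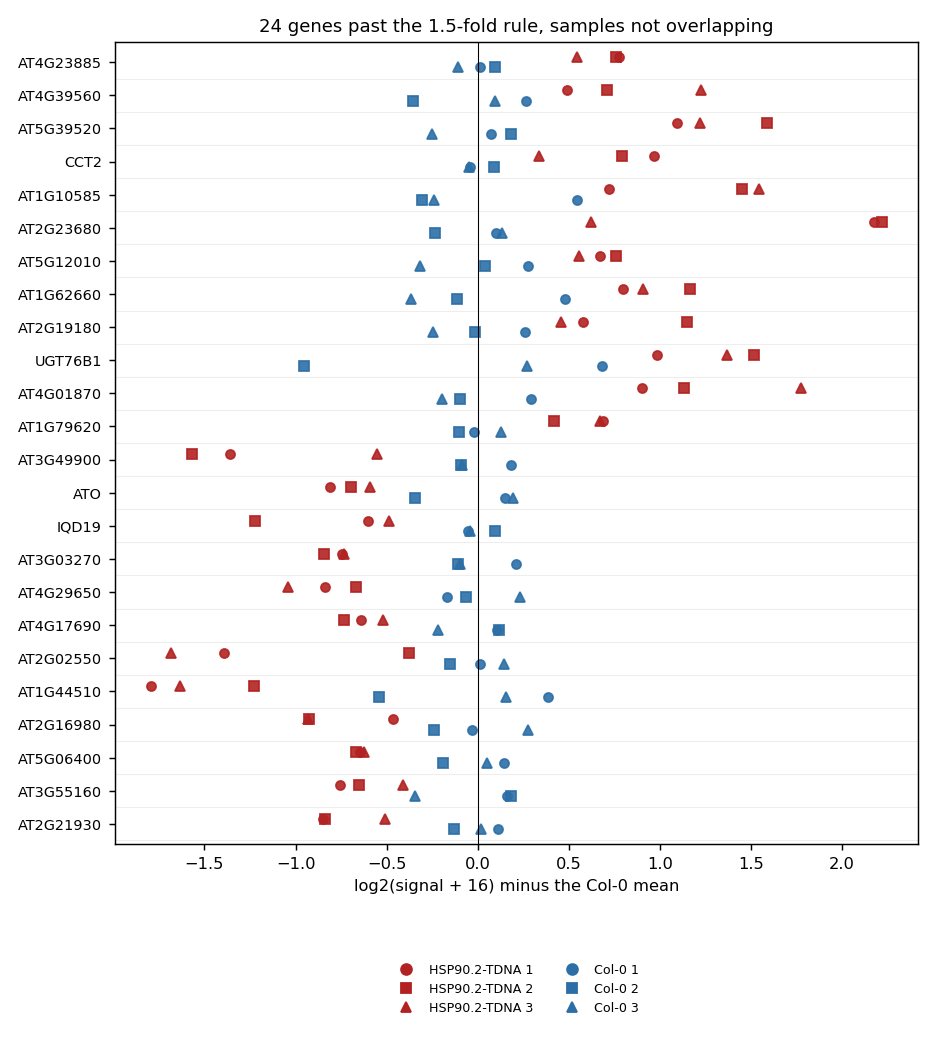
Log2(signal + 16) minus the Col-0 mean for the 12 higher and 12 lower named genes past the 1.5-fold rule with the smallest p, 1 point per sample, HSP90.2-TDNA in red and Col-0 in blue. The genes were chosen for this separation. In AT2G23680 HSP90.2-TDNA replicate 3, and in AT2G02550 replicate 2, lies nearer to Col-0 than to the other HSP90.2-TDNA samples.

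Genes of the chaperone system were described from lists of HSP90 co-chaperones, HSP70, small heat shock proteins and heat-stress markers, of which 16 genes were tested. In that order these were 6 of 17, 2 of 18, 7 of 18 and 1 of 8 list entries. None passed the adjusted test. Their median log2 change was 0.16, beside -0.03 over all probe sets tested, with 10 positive and 6 negative changes. At an unadjusted p under 0.05, 2 of 16 were higher and 0 lower, beside 2.07% higher and 2.8% lower of all probe sets. No named probe set was given for HSP101, for the heat shock transcription factors or for organellar HSP90, which are not analysed here.

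Among 6 co-chaperone genes, *SGT1A*, the adaptor of HSP90 to immune receptors named above, had 631, 899 and 758 in HSP90.2-TDNA and 388, 498 and 563 in Col-0. All HSP90.2-TDNA samples were above all Col-0 samples, with a log2 change of 0.64 (SE 0.21, unadjusted p = 0.00914, adjusted p = 0.929 by limma). It was 1 of the 16 past the 1.5-fold rule upward, beside 0.569% of all probe sets. In the sister lines *SGT1A* had 491 to 788 in HSP90.1-TDNA and 603 to 817 in HSP90.3-TDNA, ranges that overlapped with HSP90.2-TDNA. The Hop genes tested were *Hop1* and *Hop2*. *Hop1* had 508, 535 and 482 in HSP90.2-TDNA and 574, 596 and 521 in Col-0 (log2 change -0.14), and *Hop2* had 613, 658 and 604 in HSP90.2-TDNA and 651, 747 and 605 in Col-0 (log2 change -0.09). The SEs were 0.10 and 0.11. *AT3G12050* and *AT4G02450* had log2 changes of 0.22 (SE 0.11) and -0.14 (SE 0.26). *AT5G48570*, the immunophilin *ROF2*, had 171, 142 and 391 in HSP90.2-TDNA and 122, 148 and 155 in Col-0, so its log2 change of 0.55 (SE 0.33) was 0.13 without HSP90.2-TDNA replicate 3.

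The HSP70 chaperones take up clients before HSP90 does. *Hsp70-2* had 745, 612 and 627 in HSP90.2-TDNA and 644, 373 and 497 in Col-0, a log2 change of 0.41 (SE 0.23). *AT3G09440* had 5146, 3279 and 5559 in HSP90.2-TDNA and 3906, 2673 and 3714 in Col-0, a log2 change of 0.42 (SE 0.28). Without Col-0 replicate 2 the changes were 0.21 and 0.25, and without HSP90.2-TDNA replicate 2 that of *AT3G09440* was 0.66. The groups overlapped in both genes, and neither difference passed the test (unadjusted p = 0.109 and 0.162).

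Small heat shock proteins hold unfolded proteins in solution under stress, and 7 of their genes were tested, with a median log2 change of 0.11. *AT1G54050* had 556, 535 and 629 in HSP90.2-TDNA and 468, 477 and 442 in Col-0, without overlap (log2 change 0.30, SE 0.12, unadjusted p = 0.0347). *AT5G51440* had 114, 132 and 392 in HSP90.2-TDNA and 56.7, 124 and 91 in Col-0, a log2 change of 0.95 (SE 0.46) that was 0.43 without HSP90.2-TDNA replicate 3. Replicate 3 alone lay well above the Col-0 samples. *AT2G29500*, *AT2G19310* and *AT5G37670* had log2 changes of 0.11, 0.21 and 0.10, and *AT4G21870* and *ATHSP22.0*, a small heat shock protein of the endoplasmic reticulum, had -0.52 and -0.37. Without Col-0 replicate 1 the change of *AT4G21870* was -0.16. *HSA32*, which prolongs acquired heat tolerance, had 139, 205 and 212 in HSP90.2-TDNA and 173, 181 and 212 in Col-0 (log2 change -0.04, SE 0.27).

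**Figure D4:**
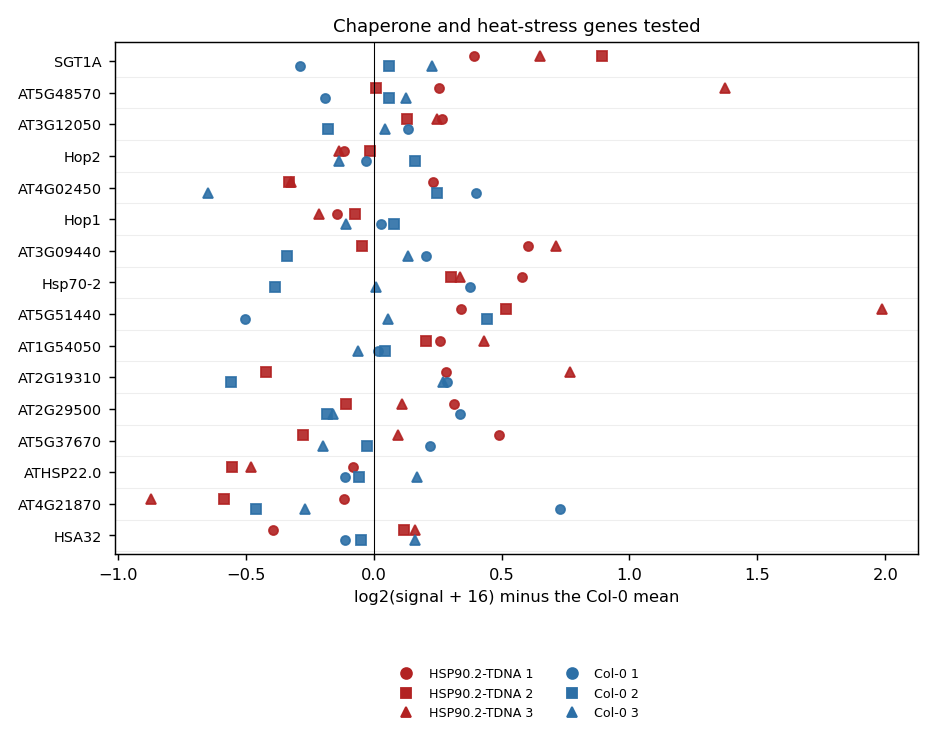
Log2(signal + 16) minus the Col-0 mean for the 16 chaperone and heat-stress genes tested, 1 point per sample, HSP90.2-TDNA in red and Col-0 in blue, ordered by list and change. The HSP90.2-TDNA samples all lie above the Col-0 samples in SGT1A and AT1G54050, though by narrow gaps. The nearest samples of the groups are at 0.391 and 0.23 in SGT1A, and at 0.204 and 0.044 in AT1G54050. HSP90.2-TDNA replicate 3 lies far to the right in AT5G51440 and AT5G48570.

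The genes tested around *HSP90.2*, which is *HSP81-2* with the locus AT5G56030 in the RefSeq gene table (assembly TAIR10.1), showed no such drop as 248045_at. Of the 49 loci from AT5G55830 to AT5G56230 on that list, 18 had a named probe set and 14 were tested. The rest, *HSP90.3* of the same cluster among them, were not seen. The 14 had log2 changes of -0.29 (*AT5G56220*) to 0.41 (*AT5G55970*) and a median of -0.02. Both ends moved with single samples, as *AT5G56220* was at -0.14 without HSP90.2-TDNA replicate 2, and *AT5G55970* at 0.25 without that sample and 0.20 without Col-0 replicate 1. None was past an unadjusted p of 0.05. *AT5G56020*, the locus next to it there, had 443, 476 and 507 in HSP90.2-TDNA and 454, 482 and 525 in Col-0, a log2 change of -0.03 (SE 0.11).

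Defence genes were described from lists of jasmonic acid, defensins, salicylic acid and WRKY transcription factors, with 17 genes tested and none past the adjusted test. In that order, 5 of 36, 6 of 13, 3 of 26 and 6 of 72 list entries were tested, some in more than 1 list. Their median log2 change was 0.23, with 10 positive and 7 negative changes. Most were highest in the sample that stood apart: among the HSP90.2-TDNA samples, 13 of the 17 genes had their highest signal in replicate 2, beside 4041 of 15471 probe sets in all. The median deviation from the Col-0 mean was 0.14 in replicate 1, 0.77 in replicate 2 and -0.18 in replicate 3 on the log2 scale.

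*PDF1.2*, a defensin gene used as a marker of the jasmonate and ethylene response, had 3931, 6689 and 883 in HSP90.2-TDNA and 1134, 615 and 649 in Col-0. The samples overlapped, since replicate 3 of HSP90.2-TDNA lay below the highest Col-0 sample, and the log2 change was 1.87 (SE 0.82, unadjusted p = 0.0416). It was 1.26 without HSP90.2-TDNA replicate 2 and 2.71 without replicate 3. The near-identical gene *PDF1.2b*, whose probe set carries the suffix of cross-hybridizing probes, had 7282, 8275 and 2323 in HSP90.2-TDNA and 4736, 2139 and 1793 in Col-0 (log2 change 0.98, SE 0.71, and 0.64 without HSP90.2-TDNA replicate 2 or 1.56 without replicate 3), so that signal of each gene may hold some of the other. In the sister lines *PDF1.2* had 495, 3325 and 384 in HSP90.1-TDNA, with replicate 2 far above the others, and 1468, 3255 and 2930 in HSP90.3-TDNA, which lay closer together.

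Other defence genes had their highest signal in replicate 2. *LCR67* had 199, 1620 and 35.6 in HSP90.2-TDNA and 341, 136 and 99.4 in Col-0, and its log2 change was 0.51 with all samples and -0.81 without replicate 2. *PDF1.4* had 153, 871 and 101 in HSP90.2-TDNA and 189, 109 and 124 in Col-0, and its log2 change was 0.76 with all samples and -0.12 without replicate 2. The direction of both defensin genes therefore rested on that sample. *WRKY53*, a transcription factor of leaf senescence and defence, had 192, 529 and 84.1 in HSP90.2-TDNA and 91.4, 70.1 and 167 in Col-0, with log2 changes of 0.91 (SE 0.56) and 0.28 without replicate 2. *GRX480*, a glutaredoxin induced by salicylic acid, had 123, 211 and 180 in HSP90.2-TDNA and 148, 83.5 and 76.8 in Col-0 (log2 change 0.68, SE 0.38). What set replicate 2 apart was not tested.

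**Figure D5:**
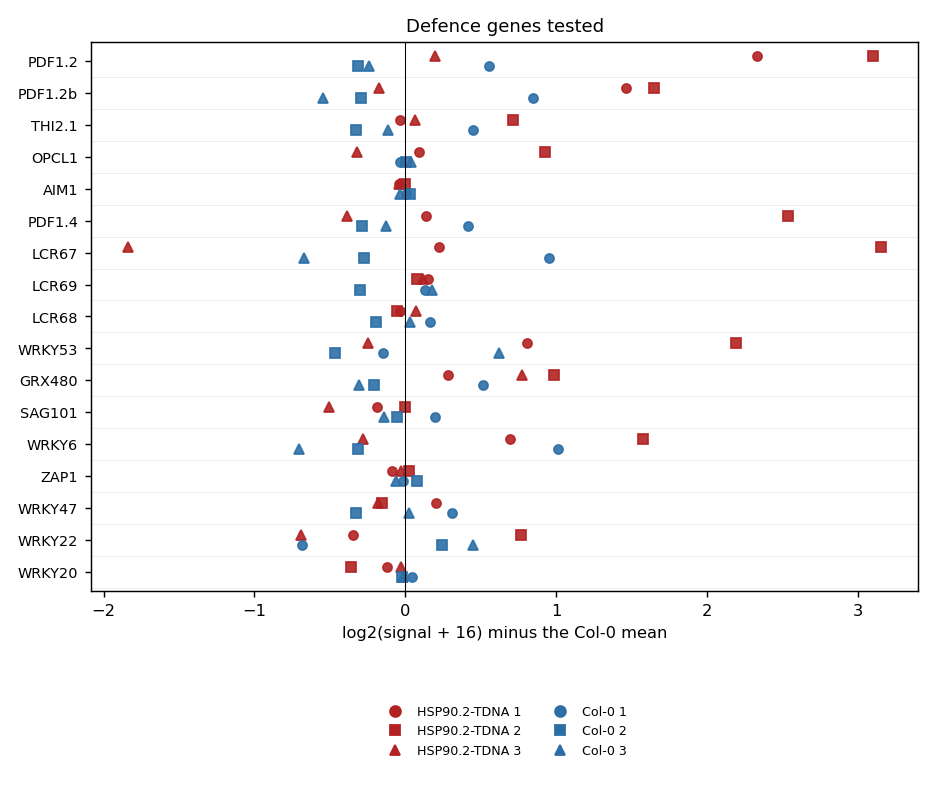
Log2(signal + 16) minus the Col-0 mean for the 17 defence genes tested, 1 point per sample, HSP90.2-TDNA in red and Col-0 in blue, with a shape for each replicate number. HSP90.2-TDNA replicate 2 (squares) is the highest HSP90.2-TDNA sample in 13 of the 17 rows, and lies above all other points in LCR67, PDF1.4 and WRKY53.

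Of the remaining lists, those with genes tested gave no member past the adjusted test. Other lists had no named probe set and were not tested, among them MYB factors, JAZ repressors, aquaporins, brassinosteroid and light signalling. Of the 41 entries of the abscisic acid, drought and cold list, 7 were tested. All 7 had positive changes, 0.03 to 0.64 on the log2 scale with a median of 0.28, and none had an unadjusted p under 0.05. The largest, *STZ*, a zinc finger repressor of stress responses, had 1571, 2836 and 1601 in HSP90.2-TDNA and 537, 1718 and 2017 in Col-0, with Col-0 replicate 1 below all others (log2 change 0.64, SE 0.47, 0.05 without that sample, and 0.36 without HSP90.2-TDNA replicate 2). Without Col-0 replicate 1 the median of the list was 0.06, and without Col-0 replicate 3 it was 0.55. *COR47*, a dehydrin gene, had 5356, 4240 and 5837 in HSP90.2-TDNA and 3673, 3911 and 5180 in Col-0 (log2 change 0.28, SE 0.19, and 0.18 without Col-0 replicate 1 or HSP90.2-TDNA replicate 3).

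Of the cell wall genes, *XTH16*, an enzyme that cuts and rejoins xyloglucan, had 615, 599 and 479 in HSP90.2-TDNA and 828, 650 and 712 in Col-0. All HSP90.2-TDNA samples were below all Col-0 samples, with a log2 change of -0.36 (SE 0.13, unadjusted p = 0.0153), short of the 1.5-fold rule. It was 1 of 18 cell wall genes tested past an unadjusted p of 0.05 downward, beside 2.8% of all probe sets. The median log2 change of the 18 was -0.03, with 8 positive and 10 negative changes, and none was past that p upward. The largest change was upward, 0.87 in *EXLA2*, with 106, 159 and 62.8 in HSP90.2-TDNA and 50.9, 109 and 16.8 in Col-0, which overlapped. *BZIP60*, a transcription factor of the unfolded protein response, had 873, 1254 and 899 in HSP90.2-TDNA and 719, 614 and 925 in Col-0 (log2 change 0.42, SE 0.26, and 0.25 without HSP90.2-TDNA replicate 2), and the other 4 genes of that list had changes of -0.17 or closer to 0. *GSTU25*, a glutathione transferase gene, had 123, 112 and 374 in HSP90.2-TDNA and 101, 93.4 and 81.1 in Col-0, without overlap, with a log2 change of 0.83 (SE 0.42) that was 0.31 without replicate 3. The 4 photosynthesis genes tested had log2 changes of -0.19 to -0.05.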

How the data were processed

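The deposited values are intensities, MAS5 signals on a linear scale that the authors scaled per array. The values show a trimmed mean of 499.8 in each of the 12 arrays. MAS5 comes from the submitters' processing notes, without a version, while the study's methods name another algorithm. Depth is limited by 3 arrays per line, which the labels call biological replicates. The 64 control probe sets were dropped. Tests took in each probe set with 1 of 4 line means above the 35th percentile, a signal of 92.2, which left 15471. On log2(signal + 16), limma 3.58.1 in R 4.3.3 fitted 1 mean per line over the 12 arrays (8 residual degrees of freedom, prior 3.45), with Benjamini-Hochberg adjustment over all probe sets and a threshold of 0.05. The fit was run on simulated data with independent noise only as a check of the code, and no result here rests on it. Genes were named for probe sets with a single gene in the probe table (13513; 503 have several, 8730 none). Named are all probe sets called, the 12 higher and 12 lower genes past the 1.5-fold rule without overlap, chaperone genes, the neighbours of *HSP90.2* by range, and up to 3 members of other lists where they were large. The samples, lists and rules were chosen with earlier results of these data known. Alternatives were other offsets and filters, quantile normalization, a replicate block, the methods' t-test, other sets of arrays, and each sample left out.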

Additional observations from a re-analysis of the deposited data

Results flagged for a closer look

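The differences between insertion lines of the same experiment that passed the direct limma test with all samples are given here. The calls of 248332_at and of the named genes were lost in some fits with a sample left out, as given above. HSP90.2-TDNA minus HSP90.1-TDNA was -7.12 for 248045_at, 2.64 for 248332_at, 1.21 for *AT3G57940* and -2.76 for *AT2G23950*, on the log2 scale. HSP90.2-TDNA minus HSP90.3-TDNA was -7.27 for 248045_at, 2.79 for 248043_s_at and -2.26 for *AT2G10850*. The adjusted p-values of the named genes were 0.00497 for *AT3G57940*, 0.0485 for *AT2G23950* and 0.0123 for *AT2G10850* by limma. Of these, 248045_at is the one called for HSP90.2-TDNA against both sister lines and against Col-0. The HSP90.2-TDNA samples of 248332_at also lay above all samples of those lines, without a call against HSP90.3-TDNA or Col-0.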

How the results depend on the processing

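Probe set 248045_at stayed called in every alternative but the methods' t-test, at log2 changes of -8.23 to -5.70. By that test 0 probe sets were called against Col-0 (499 at an unadjusted p under 0.05), 0 against HSP90.1-TDNA (323), 0 against HSP90.3-TDNA (409) and 0 against the mean of both (492), where limma with all samples called 1, 4, 3 and 2. Against the mean of both, the t-test took the samples of both sister lines as a single group. Its spread there held the difference between those lines, which that of limma did not. With the samples of both lines alone, 2 were called against HSP90.1-TDNA. The count past the 1.5-fold rule, 160, was 85 with an offset of 64, 471 without a filter, 90 with the filter at the 50th percentile, 53 by the methods' t-test and 269 in a fit of all 13 lines without an outlying array of RNAi-A3. Leaving out each sample in turn gave 1 to 2 calls against Col-0, 1 to 6 against HSP90.1-TDNA, 2 to 3 against HSP90.3-TDNA, 2 to 4 against the mean of both, and 154 to 399 past the 1.5-fold rule. The direction of some genes, none of them called, turned when a sample was left out, with log2 changes of -0.81 to 1.68 for *LCR67*, -0.12 to 1.34 for *PDF1.4*, -0.47 to 0.06 for *AT4G02450*, -0.14 to 0.14 for *HSA32*, -0.09 to 0.29 for *AT5G37670* and -0.07 to 0.52 for *AT2G19310*. Whether the replicate numbers pair samples is not stated by the labels, and the main fit did not pair them. Deviations of HSP90.2-TDNA and Col-0 samples with the same number correlated at 0.278, 0.003 and 0.262, and those with different numbers at -0.285 to 0.074. With HSP90.1-TDNA they correlated at 0.338, 0.378 and 0.065 for the same number and at -0.425 to 0.175 otherwise. With HSP90.3-TDNA these were 0.193, 0.313 and 0.038, and -0.336 to 0.194. Samples with the same number were thus mostly more alike. Yet replicate 3 of HSP90.2-TDNA correlated better with replicate 1 than with replicate 3 of both sister lines. With the replicate number as a block, 1 probe set was called against Col-0, 3 against HSP90.1-TDNA, 2 against HSP90.3-TDNA, 2 against the mean of both, and 205 were past the 1.5-fold rule. The calls lost were *AT2G23950* (adjusted p = 0.0533) and *AT2G10850* (adjusted p = 0.0681), both by limma. With 3 samples per line, the 95% interval reached a median of 0.34 to either side, before any adjustment over the probe sets tested. The adjusted test asked for more. Changes of 1.67 (*AT2G23680*) and -1.55 (*AT1G44510*) had an adjusted p of 0.929 by limma, so changes well above 0.34 could also be missed.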

Other observations

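Some genes were far apart in a single sample, and were chosen after their values were seen. In HSP90.2-TDNA replicate 2 these included *JRG21*, a jasmonate-regulated gene, with 1860 against 165 and 99.2 in the other HSP90.2-TDNA samples and 334, 175 and 208 in Col-0, and *OSM34*, an osmotin-like gene, with 2818 against 382 and 462 in the other HSP90.2-TDNA samples and 723, 217 and 593 in Col-0. In HSP90.2-TDNA replicate 3 they included *Fes1A*, a co-chaperone of HSP70, with 1387 against 481 and 534 in the other HSP90.2-TDNA samples and 451, 399 and 488 in Col-0, and *AT3G44190*, with 2202 against 536 and 584 in the other HSP90.2-TDNA samples and 492, 686 and 653 in Col-0. Col-0 replicate 1 was low in *ORA47*, a transcription factor of the jasmonate response, which had 857, 833 and 1165 in HSP90.2-TDNA and 150, 1031 and 1334 in Col-0. The high and the low genes thus differed between the samples of one line.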
